A study of Mus musculus with 2 samples.

Results

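Divergent promoter pairs are stretches of DNA where 2 protein-coding genes start back to back and are read in opposite directions. Members were chosen from the GENCODE vM21 annotation of mm10 alone, with no measured value: both genes protein-coding, on autosomes and on opposite strands, with their gene 5' ends head to head and at most 1000 bp apart. The region of a pair ran from 500 bp before the first 5' end to 500 bp after the second. The rule found 734 pairs holding 1448 (6.96%) of the 20807 autosomal protein-coding genes, and 20 of those genes stood in more than 1 pair. The comparison set was 18126 single promoters, meaning 5' ends of protein-coding genes with no other protein-coding 5' end within 1000 bp, each with 500 bp on either side. A further 1233 genes lay that close to another gene without forming such a pair, for example with overlapping 5' ends or on the same strand, and entered neither set. A pair is written with the minus-strand gene first, as in Atm/Npat. DNase-seq, which maps chromatin that DNase I can cut, was run on tissue labelled thymus, of male mice aged 36 days of the hybrid strain B6CASTF1/J. The single group holds 2 untreated libraries, labelled replicate 1 and replicate 2. The labels call them separate biological replicates but list 1 donor identifier for both, so how many animals were used is not settled.

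At a divergent pair, a short nucleosome-poor stretch carries the start sites of both genes, and transcription factors bound there can serve either direction. Such pairs are known to be common in mammals, to be rich in CpG dinucleotides, and to hold many genes needed in every cell, such as those for DNA repair, RNA processing and mitochondria. A peak marks DNA cut more often than its surroundings, and a footprint is a short protected stretch within such DNA, as a bound protein can leave.

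The libraries stood apart at cell type genes. Of 14 thymocyte genes, all 14 had a promoter peak in the library labelled replicate 2. The library labelled replicate 1 had one at 2 of them, Lck and Tcf7. Among the genes without a peak there were the defining Cd3d, Cd3e, Cd3g, Cd4, Cd8a, Cd8b1, Rag1 and Rag2. Of 14 genes of the acinar (enzyme-secreting) cells of the pancreas, all 14 had a promoter peak in the library labelled replicate 1. The library labelled replicate 2 had one at 3, among them Cela1 and Rbpjl. The label thymus is therefore met by the markers of the library labelled replicate 2 and not by those of the library labelled replicate 1. Most shares and ranks are given per library and others only for both libraries together, and the part of this difference in the results was not tested. The shorter of the 2 deposited peak lists, used throughout, held 85367 and 60644 peaks in the libraries labelled replicate 1 and 2, and the footprint lists held 316358 and 270843 footprints. The files hold no read counts, so depth is unknown. Where a sentence gives a pair of values without naming libraries, the first is from the library labelled replicate 1.

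The sequences show what lies between the 5' ends. Each is the plus strand of GRCm38 (mm10) as RefSeq gives it, read from the base after the minus-strand gene's 5' end to the base before the plus-strand gene's 5' end, with bases inside a footprint of both libraries in capitals. The first 8 were chosen among open pairs for their strong peaks or well-known genes and the next for its histone genes. The last 2 had no peak in the shorter lists.
Dcaf6/Mpc2 (chr1:165460476-165460636): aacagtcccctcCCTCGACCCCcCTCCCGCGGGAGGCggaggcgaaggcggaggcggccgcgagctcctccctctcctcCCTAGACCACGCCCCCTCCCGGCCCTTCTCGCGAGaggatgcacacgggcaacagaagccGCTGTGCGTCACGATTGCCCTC
Tepsin/Ndufaf8 (chr11:120098732-120098927): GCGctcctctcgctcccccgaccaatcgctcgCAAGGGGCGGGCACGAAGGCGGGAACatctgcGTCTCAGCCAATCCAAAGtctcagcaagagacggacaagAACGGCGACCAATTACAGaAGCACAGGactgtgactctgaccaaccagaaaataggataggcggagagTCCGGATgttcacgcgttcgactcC
Pdhx/Apip (chr2:103073514-103073674): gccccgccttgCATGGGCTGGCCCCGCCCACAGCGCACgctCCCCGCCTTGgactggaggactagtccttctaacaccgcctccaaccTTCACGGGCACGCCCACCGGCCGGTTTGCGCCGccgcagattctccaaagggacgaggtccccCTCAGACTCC
Ftsj3/Psmc5 (chr11:106256080-106256153): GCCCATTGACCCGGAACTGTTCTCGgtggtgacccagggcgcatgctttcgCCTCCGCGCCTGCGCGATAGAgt
Med22/Rpl7a (chr2:26910678-26910763): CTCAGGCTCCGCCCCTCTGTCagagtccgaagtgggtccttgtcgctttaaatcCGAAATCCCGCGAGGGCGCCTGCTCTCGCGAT
Palb2/Dctn5 (chr7:122132986-122133040): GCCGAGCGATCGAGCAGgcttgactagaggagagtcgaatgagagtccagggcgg
Sdhd/Timm8b (chr9:50603813-50603909): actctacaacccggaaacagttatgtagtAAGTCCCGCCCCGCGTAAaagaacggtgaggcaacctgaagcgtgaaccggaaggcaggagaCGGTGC
Aurka/Cstf1 (chr2:172370536-172370680): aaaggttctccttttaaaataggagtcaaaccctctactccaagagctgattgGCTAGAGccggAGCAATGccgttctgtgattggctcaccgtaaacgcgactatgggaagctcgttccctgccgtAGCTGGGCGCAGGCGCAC
Hist2h2ac/Hist2h2be (chr3:96220881-96221118): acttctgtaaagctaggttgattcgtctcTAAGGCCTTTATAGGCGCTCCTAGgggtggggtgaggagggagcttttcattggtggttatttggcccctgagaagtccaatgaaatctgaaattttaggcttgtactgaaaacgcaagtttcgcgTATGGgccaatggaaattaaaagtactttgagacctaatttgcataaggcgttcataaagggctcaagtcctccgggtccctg
Col4a4/Col4a3 (chr1:82586850-82586920): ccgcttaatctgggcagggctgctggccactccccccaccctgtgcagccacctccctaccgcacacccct
Rnf151/Rps2 (chr17:24718064-24718115): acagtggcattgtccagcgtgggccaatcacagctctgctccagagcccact
The 8 open pairs held between 17 and 81 footprint bases shared by the libraries. The G+C content of the histone spacer was 45.8%, below that of the other open pairs printed, which ran from 53.8% to 71.4%. The 2 pairs without a peak held 0 such bases. Their CpG counts were 2 between Col4a4 and Col4a3 and 1 between Rnf151 and Rps2, against 5 to 17 in the 9 others.

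Nearly all divergent pairs were open, meaning that at least 1 peak overlapped the region. A pair region holds the 5' ends of 2 genes and a single-promoter region that of 1, so a peak near either gene opened a pair. The part of this in the differences from single promoters, here and in the ranks and footprint counts below, was not tested. In the library labelled replicate 1, 702 of 734 pairs (95.6%, 95% Wilson interval 93.9 to 96.9) had a peak, against 53.0% of single promoters. In the library labelled replicate 2 the count was 695 (94.7%, 92.8 to 96.1), against 49.4%. A peak in both libraries was found in 690 pairs (94.0%, 92.0 to 95.5) and 45.8% of single promoters. The pairs thus had almost the same share in both libraries despite the opposite marker genes. Only the library labelled replicate 1 had a peak in 12 pairs (1.63%), against 7.21% of single promoters. Only the library labelled replicate 2 had a peak in 5 pairs (0.681%), against 3.55% of single promoters, and 27 pairs had a peak in neither. With 1 group of 2 libraries no test over samples was possible. The intervals cover the counting of regions within this annotation and not the variation between libraries. In bulk tissue, fewer cells with an open site and less cutting per cell cannot be told apart.

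The pairs also differed from single promoters in base content: 616 pairs (83.9%) were CpG-rich, against 41.0% of single promoters. CpG-rich here means a G+C content of at least 50% and a ratio of observed to expected CpG of at least 0.6 over the region. In CpG-rich regions, 99.2% and 98.7% of pairs had a peak in the libraries labelled replicate 1 and 2, against 90.4% and 87.2% of single promoters. A peak in both was found in 607 of 616 pairs (98.5%, 97.2 to 99.2) and 6311 of 7430 single promoters (84.9%, 84.1 to 85.7). As above, a peak near either gene of a pair counted. The other 118 pairs were open in both in 83 cases (70.3%, 61.6 to 77.8), against 18.6% of 10696 other single promoters. The difference was therefore smaller among CpG-rich regions, at 13.6 percentage points, and larger among the rest. The rest were not matched in base content. Their median ratio of observed to expected CpG was 0.523 in pairs and 0.234 in single promoters, and their median G+C content 55.0% and 48.4%. The part of this in the larger difference was not tested. Single promoters with a noncoding gene head to head within 1000 bp fell between pairs and single promoters as a whole. Of 832 such promoters, 621 (74.6%, 71.6 to 77.5) were open in both libraries, and of their 610 CpG-rich members 544 (89.2%, 86.5 to 91.4).

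**Figure D1:**
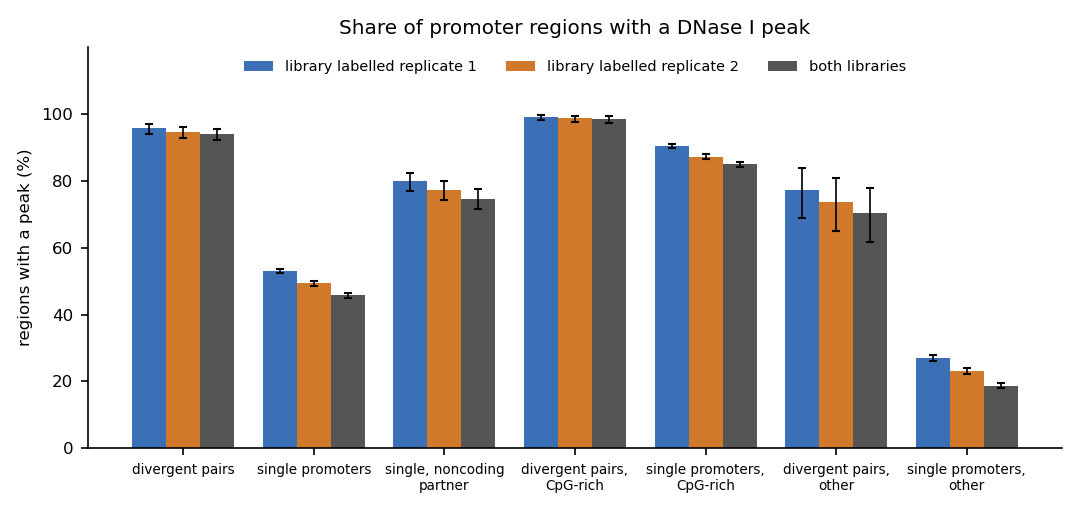
Bars give the share of regions with a peak (y axis, percent) for each library and for both, and whiskers the 95% Wilson interval. Divergent pairs stand at 94.0% to 95.6% and single promoters at 45.8% to 53.0%, with the gap smaller among CpG-rich regions. "Other" means not CpG-rich.

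The peaks of divergent pairs ranked high in each library. The sources used here do not say how the deposited signal was scaled, so each region's strongest peak was ranked among all peaks of its own library, on a scale of 0 to 100. The median percentile of open pairs was 94.97 (quartiles 90.4 and 97.7) in the library labelled replicate 1. It was 93.39 (88.0 and 96.9) for the library labelled replicate 2. Open single promoters had medians of 88.2 and 86.7. A peak in the top 10% of the library was present in 536 pairs (73.0% of all 734) and 482 pairs (65.7%), against 23.9% and 19.8% of single promoters. Among CpG-rich regions the medians were 95.3 and 93.9 in pairs and 91.3 and 89.9 in single promoters. CpG-rich single promoters with a noncoding partner had medians of 93.1 and 92.2. Spearman's rho of the percentiles of the libraries was 0.81 over the 690 pairs and 0.81 over the single promoters. This is a description over regions that share 2 libraries.

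**Figure D2:**
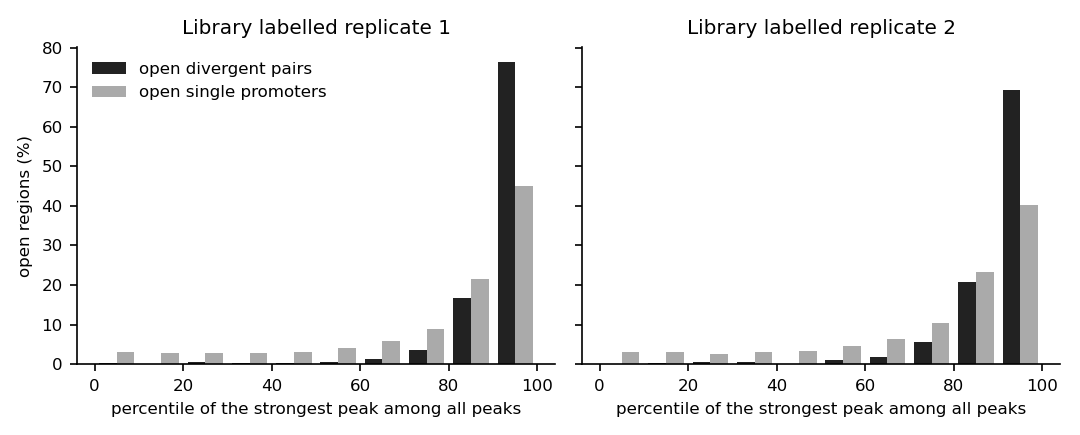
Bars give the share of open regions (y axis, percent) per 10-point bin of the strongest peak's percentile (x axis). The top bin holds 76.4% and 69.4% of open divergent pairs and 45.1% and 40.2% of open single promoters in the libraries labelled replicate 1 and 2.

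The strongest pair was Hjurp/Trpm8 on chromosome 1, with 5' ends 28 bp apart. Hjurp (ENSMUSG00000044783.16) encodes the chaperone that places the centromere histone, and Trpm8 (ENSMUSG00000036251.16) a cold-sensing ion channel. Its percentile was 99.988 for the library labelled replicate 1 and 99.987 for the other. Fbh1/Ankrd16, with a DNA helicase of recombination as its first gene, followed with 99.985 and 99.957. Also among the highest was Tepsin/Ndufaf8, an adaptor protein of vesicle traffic and an assembly factor of respiratory complex I, at 99.899 and 99.883. These 3 pairs were chosen for the highest mean percentile over both libraries, so a high rank in each follows from the choice. Rita1/Ddx54 (99.877 and 99.901), Pdhx/Apip (99.953 and 99.814), Dcaf6/Mpc2 (99.744 and 99.921) and Fam53a/Gm9903 (99.779 and 99.876) were also among the 8 highest by mean percentile. Ddx54 encodes an RNA helicase, Pdhx a subunit of pyruvate dehydrogenase and Mpc2 a subunit of the mitochondrial pyruvate carrier.

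In more than 50% of open pairs of each library the strongest peak centred between the genes, with a share that depended on their distance. The strongest peak had its midpoint between the 5' ends in 417 of 702 open pairs (59.4%, 55.7 to 63.0) and in 430 of 695 (61.9%, 58.2 to 65.4). It lay over the minus-strand gene in 19.9% and 19.6% and over the plus-strand gene in 20.7% and 18.6%, so neither side was favoured beyond the intervals. The stretch between the 5' ends is upstream of both genes. In open single promoters, the strongest peak's midpoint was upstream of the 5' end in 57.4% and 59.0%, with no paired gene to bound that side. Pairs 1 to 100 bp apart, which leave the least room between the 5' ends, had the midpoint there in 42.4% and 50.7%. The share was 64.7% and 67.4% at 101 to 200 bp, 80.4% and 76.0% at 201 to 500 bp, and 72.6% and 63.3% at 501 to 1000 bp. The median distance of its midpoint from the middle of the pair was 50.5 bp and 43.5 bp. Where both libraries were open, their strongest peaks overlapped in 656 of 690 pairs (95.1%), with midpoints a median of 20 bp apart. At the middle of the pair, 78.1% and 74.2% of all pairs lay in a peak, against 39.4% and 37.2% of single promoters at their 5' end. The profile of pairs fell away to a similar extent on both sides, to 63.2% and 65.7% at 100 bp to the left and right in the library labelled replicate 1. Single promoters, drawn with the gene to the right, stood at 35.2% upstream and 24.6% downstream at the same distance.

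**Figure D3:**
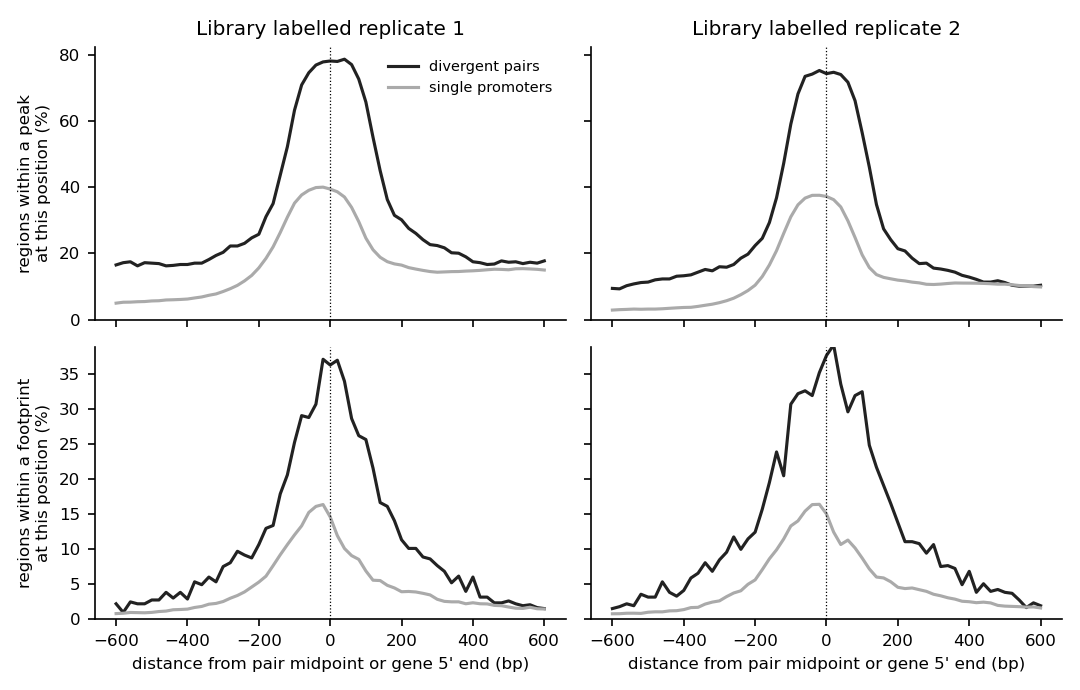
Lines give the share of regions covered by a peak (upper panels) or a footprint (lower panels) at each position (x axis, bp from the middle of a pair, plus-strand gene to the right, or from the 5' end of a single gene, gene to the right). Pairs reach 78.1% and 74.2% in peaks at position 0, and single promoters 39.4% and 37.2%.

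The percentile of the peaks stayed within a narrow range over the distances between the genes, while the share with 1 peak over both 5' ends fell with distance, as peak width requires. The median distance was 128 bp (quartiles 66.2 and 240; range 1 to 987). The strongest peaks of open pairs had median widths of 260 bp and 240 bp, so wider gaps are out of reach of most single peaks. Pairs 1 to 100 bp apart had a peak covering both 5' ends in 87.9% (library labelled replicate 1) and 90.5% (replicate 2) of open pairs. The share was 65.8% and 59.4% at 101 to 200 bp and 25.5% and 18.8% at 201 to 500 bp. At 501 to 1000 bp it was 0 of 62 and 0 of 60 pairs. The share of pairs open in both libraries was 96.1% in the closest class and 93.0% in the next. It was 152 of 160 pairs at 201 to 500 bp and 58 of 68 pairs (85.3%) in the widest class, which was CpG-rich in 61.8% of them against 87.6% of the closest class. The median percentile did not follow distance, at 95.2, 94.7, 95.3 and 94.6 for the library labelled replicate 1 and 92.7, 93.6, 94.2 and 92.0 for the other. Spearman's rho of distance and percentile over open pairs was 0.03 and 0.08. A single peak served 50.3% and 62.7% of all open pairs.

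**Figure D4:**
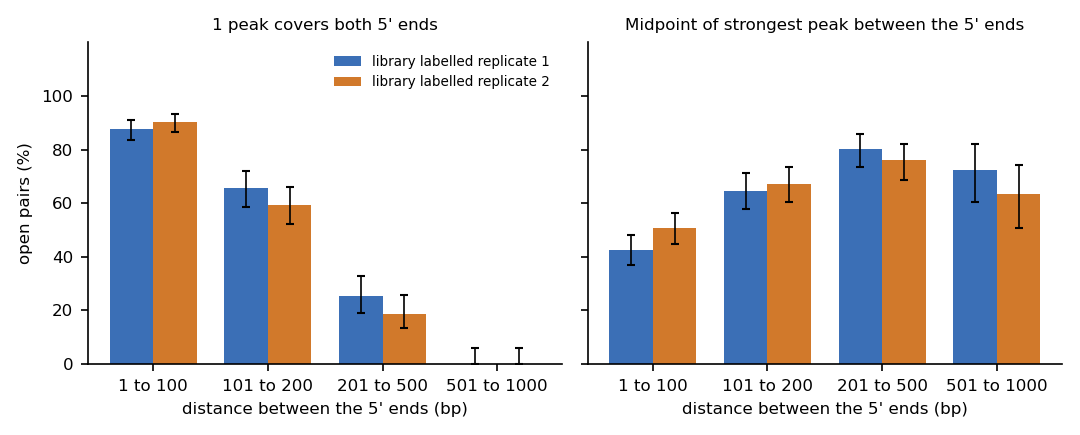
Bars give, by distance between the 5' ends (x axis, bp), the share of open pairs (y axis, percent) with 1 peak over both 5' ends (left) and with the strongest peak's midpoint between them (right), with 95% Wilson intervals. Coverage of both 5' ends falls from 87.9% and 90.5% in the closest class to 0 in the widest, where the gap exceeds the width of most peaks.

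The extremes of the rule follow. The 5' ends of Bag4 (a co-chaperone) and Lsm1 (an RNA decay factor) and those of Slc7a6os and Prmt7 (an arginine methyltransferase) were 1 bp apart. A single peak covered both starts in each library. Its percentile was 98.4 and 98.1 at Bag4/Lsm1 and 98.7 and 93.2 at Slc7a6os/Prmt7. Dhrs1/Nop9, 3 bp apart, was lower, at 86.2 and 84.9. At the other end were Btf3l4/Txndc12 (987 bp; 89.2 and 87.1), Asphd1/Sez6l2 (981 bp; 85.7 and 91.4) and Zfyve26/Rad51b (978 bp; 89.8 and 84.5), just inside the limit of 1000 bp. Just outside it was Cd3d/Cd3g, the CD3 chain genes of the T cell receptor, at 1355 bp, with no peak at either 5' end in the library labelled replicate 1 and a percentile of 89.3 in the other.

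Open pairs held more footprints than open single promoters. The median was 9 (quartiles 7 and 12) for the library labelled replicate 1 and 10 (8 and 13) for the other, against 7 and 8 in single promoters. The regions of pairs are longer, and their peaks covered a median of 362 and 280 bp, against 303 and 240 bp. Counted within peaks, the density was 16.5 and 17.7 footprints per kb of peak in pairs and 14.6 and 16.0 in single promoters, so the gap per length was smaller. Among CpG-rich regions the median counts were 10 and 10 in open pairs and 8 and 8 in open single promoters, with densities of 16.6 and 17.7 against 15.1 and 16.3. CpG-rich single promoters with a noncoding partner came closer to the pairs, with medians of 9 and 9 and densities of 16.0 and 16.6. Of the footprints in all pair regions, open or not, 69.3% and 62.3% overlapped a footprint of the other library. In all single-promoter regions, many of them without a peak, it was 58.7% and 56.4%. B3galt6/Sdf4, a gene for proteoglycan synthesis and one for a calcium-binding Golgi protein, had 30 and 27 footprints. Cdca2/Kctd9 had 24 and 26, Cbx5/Hnrnpa1 had 24 and 26, and Fiz1/Gm44973 had 20 and 29, and these 4 held the most. Cbx5 encodes a heterochromatin protein and Hnrnpa1 an RNA-binding splicing factor. The deposited score was 0.01 for every footprint, so footprints could be counted but not ranked.

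Short consensus sequences of known factors differed in frequency between the sets. Windows of 300 bp were searched on both strands, centred on the middle of each pair or running from 250 bp before to 50 bp after each single 5' end. The pair windows hold more transcribed sequence, and their median G+C content was 62.5% against 54.3%. Most pair windows also hold the 5' ends of both genes, where a single window holds that of its own gene only. The part of this in the shares below was not tested. The ETS sequence CCGGAAG, bound by factors such as GABPA, was in 28.3% of pairs (25.2 to 31.7) and 9.20% of single promoters, and among CpG-rich regions in 30.2% and 16.4%. It is in the printed spacer of Sdhd/Timm8b. The YY1 sequence AAGATGGCG was in 5.59% and 1.31%, and among CpG-rich regions in 6.01% and 2.54%. Its first 3 letters are the last 3 of the ETS sequence, but no window held both overlapping in this way. The palindrome CTCGCGAG, present between Dcaf6 and Mpc2, was in 3.81% and 0.982%, and among CpG-rich regions in 3.90% and 2.22%. The NRF1 sequence GCGCATGC, present between Ftsj3 and Psmc5, was in 6.68% and 3.10%, and among CpG-rich regions in 7.31% and 5.94%. The cyclic AMP response element TGACGTCA was in 4.50% and 2.22%, among CpG-rich regions in 5.03% and 3.76%.

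The remaining sequences did not share 1 pattern. The SP/KLF sequence GGGCGG was in 67.8% of pairs and 41.1% of single promoters, but among CpG-rich regions in 71.6% and 72.7%. The CCAAT box of NF-Y was in 44.3% and 38.5%, and among CpG-rich regions in 45.3% and 37.2%. The E-box CACGTG was in 10.9% and 7.48%, and among CpG-rich regions in 11.7% and 11.4%. The TATA sequence TATAAA was in 4.50% and 13.7%, and among CpG-rich regions in 3.90% and 6.19%. The RUNX sequence TGTGGT, of factors central to T cell development, was in 8.72% and 15.9%, and among CpG-rich regions in 8.28% and 9.97%. Within the pairs, 71 of 80 NRF1 matches (88.8%) lay wholly inside a footprint in each library, as did 31 and 32 of 35 response element matches. The share was 29.3% and 39.1% of 266 ETS matches and 6.06% and 3.03% of 66 RUNX matches. In single promoters, whose windows include the many without a peak, it was 72.3% and 71.7% for NRF1, 61.7% and 66.8% for the response element, 21.9% and 28.1% for ETS and 2.70% and 3.44% for RUNX. The 80 NRF1 matches lay in 49 pairs. The NRF1 sequence can overlap its own reverse complement, so these matches need not be separate sites. A match is a description of letters and not a measured binding site.

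By function, genes of basic cell machinery were often in pairs. Their pairs were nearly all open in both libraries, as were 690 of all 734 pairs (94.0%). Of the 152 genes of DNA replication and repair listed, 44 (28.9%) were in a pair, against 6.96% of all autosomal protein-coding genes. The shares were 24.0% of RNA processing genes, 23.1% of the mitochondrial ribosome, 16.8% of the cell cycle, 16.3% of chaperones and 14.3% of the proteasome. For the respiratory chain and ATP synthase it was 24 of 120 genes. Every pair with a gene of RNA processing (41), the respiratory chain (24), the cell cycle (22), the mitochondrial ribosome (18), chaperones (16) or the proteasome (7) had a peak in both libraries. Of 46 pairs of DNA replication and repair, 45 did. The exception, Pinlyp/Xrcc1, whose second gene encodes a scaffold of single-strand break repair, had a peak at percentile 28.2 in the library labelled replicate 1 and none in the other.

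Single promoters of the same lists were also mostly open. Over 9 lists of basic machinery together (the 7 named, the cytosolic ribosome and replication-dependent histones), 182 of 187 pairs (97.3%, 93.9 to 98.9) and 579 of 637 single promoters (90.9%, 88.4 to 92.9) had a peak in both libraries. Their median percentiles were 95.5 and 93.1 in pairs and 93.9 and 92.3 in single promoters. The gap between pairs and single promoters was thus 6.43 percentage points within these lists and 48.2 over all genes. Zinc finger genes were in pairs in 5.54% of cases and had 20 of 22 pairs open in both libraries, against 74.2% of their single promoters. For Tmem genes, a name given to membrane proteins of varied function, it was 22 of 23 pairs against 52.1%.

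**Figure D5:**
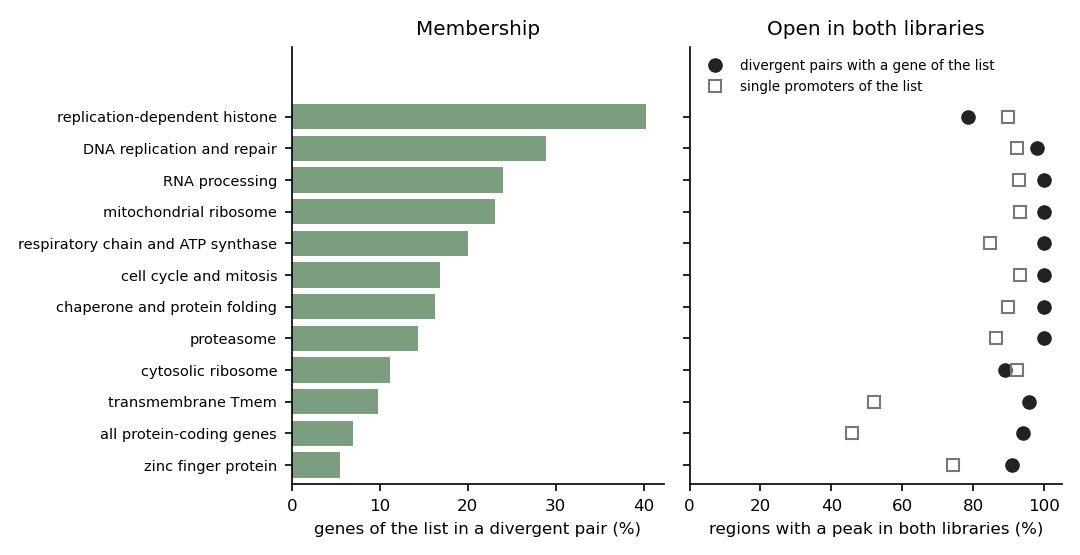
Left, the share of each list's genes that stand in a divergent pair (x axis, percent). Right, the share of regions with a peak in both libraries (x axis, percent) for pairs with a gene of the list (filled circles) and for the list's single promoters (open squares), for the lists with at least 5 pairs. Histone genes are most often in pairs (40.3%), and their pairs are the only ones, with those of the cytosolic ribosome, that stand below the single promoters.

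Named examples from these lists were chosen for the highest mean percentiles over both libraries within each list. Their high ranks in both libraries therefore follow from the choice. Lig4/Abhd13, with the ligase of DNA end joining, stood at 99.8 and 99.1. Palb2/Dctn5, with the partner of BRCA2, stood at 99.967 and 98.8 with 5' ends 56 bp apart. Dnajb4/Fubp1 (99.6 and 99.954) and Tecr/Dnajb1 (98.6 and 99.7) carry genes of HSP40 co-chaperones. Hnrnpa2b1/Cbx3, an RNA-binding protein and a heterochromatin protein, stood at 99.667 and 99.695. Med22/Rpl7a, a Mediator subunit and a ribosomal protein, stood at 99.9 and 99.7, and Rps28/Ndufa7 at 99.1 and 98.8. Ftsj3/Psmc5, an RNA methyltransferase and a proteasome ATPase, stood at 99.6 and 98.5. Uqcrq/Gdf9 paired a subunit of respiratory complex III with an oocyte growth factor, at 99.8 and 98.7. Cdc27/Myl4 paired a subunit of the anaphase-promoting complex with a muscle myosin light chain, at 99.6 and 99.911.

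Histone pairs were the weakest of these groups. Of 67 replication-dependent histone genes 27 were in a pair, and 13 of the 14 pairs joined 2 histone genes. In both libraries 11 pairs were open, with median percentiles of 81.1 and 79.3 against 94.97 and 93.39 for all open pairs. The highest were Hist2h2ac/Hist2h2be (91.0 and 83.6) and Hist1h2an/Hist1h2bp (90.8 and 81.9). The 3 without a peak were Hist1h2bq/Hist1h2ao, Hist1h2ap/Hist1h2br and Hist1h2ba/Hist1h2aa, all CpG-rich. Hist1h2ba and Hist1h2aa are known as testis forms. Histone genes have near-identical copies, and the sources used here do not say how reads matching several places were counted, so their values are uncertain.

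Of 20 pairs known from textbooks, 9 met the rule and 8 of these were open in both libraries. Mcm4/Prkdc, a replicative helicase subunit and a kinase of DNA end joining, had percentiles of 98.2 and 98.7 (signal 8.65 and 19.96). Atm/Npat, the kinase of the DNA damage response and a regulator of histone genes, had 96.9 and 98.8. Sdha/Ccdc127 had 95.2 and 95.7, Aurka/Cstf1 94.3 and 94.1, and Gart/Son 93.7 and 94.6. These encode, in the order of their better-known genes, a subunit of succinate dehydrogenase, a mitotic kinase and an enzyme of purine synthesis. Brca1/Nbr1 had 92.208 and 92.201, with the strongest peak over Nbr1 (an autophagy receptor) in each library. Sdhd/Timm8b had 94.2 and 88.3, and Wrap53/Trp53, the p53 gene with its divergent neighbour, 88.0 and 88.7. Only Col4a4/Col4a3, basement membrane collagens of the kidney glomerulus, had no peak in the shorter lists. The library labelled replicate 1 had 1 peak there in its longer list.

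The other 11 textbook pairs failed the rule, since their annotated 5' ends overlapped in 10 cases and lay too far apart at Cd3d/Cd3g. At Hspd1/Hspe1, the mitochondrial chaperonin genes, the overlap was 111 bp, and the percentile at their 5' ends was 98.7 and 98.0. At Tap1/Psmb9, genes of antigen processing, it was 211 bp, with 99.4 and 99.6. Of the 11, 8 had a peak at a 5' end in both libraries, and Col4a1/Col4a2 had one in neither. In the whole annotation 446 further pairs overlapped at their 5' ends by up to 1000 bp. Of these, 406 (91.0%, 88.0 to 93.3) were open in both libraries, with median percentiles of 93.0 and 91.6.

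Few pairs differed between the libraries. Of the 12 pairs open only in the library labelled replicate 1, 8 were not CpG-rich. The same held for 4 of the 5 pairs open only in the other library, and for 118 of all 734 pairs. Kirrel2 and Nphs1 encode adhesion proteins of the kidney filter, and Kirrel2 is also known from pancreatic islets. The pair Kirrel2/Nphs1 had 5 peaks in the library labelled replicate 1. The strongest was at percentile 96.4, with 15 footprints in the region and none in the other library. Gm10447/Shroom1 (77.7), Stap2/Mpnd (76.4), Sox6/1110004F10Rik (70.3) and Nisch/Sema3g (68.3) followed. Of the 5 pairs open only in the library labelled replicate 2, the strongest was Smyd1/Cd8b1 at 91.5 with 13 footprints. Cd8b1 encodes a chain of the CD8 coreceptor of T cells, and Smyd1 a muscle methyltransferase. This was the only pair with a gene of the T lineage list, of whose 95 genes 1.05% were in a pair. The others were Bend6/Dst (63.0), Pecam1/Milr1 (57.5), Duox2/Duoxa2 (36.1) and 4931428L18Rik/Pih1d3 (7.99). In the longer list of the other library, Bend6/Dst and Duox2/Duoxa2 each had 1 peak, so their difference rests on the shorter lists. Likewise Sox6/1110004F10Rik had 1 peak in the longer list of replicate 2. Pecam1 encodes an adhesion protein of endothelium and blood cells, and Duox2 and Duoxa2 an oxidase and its maturation factor. The markers named above moved with these differences, and their part was not tested.

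Pairs open in both libraries but ranked differently were chosen after their values were seen. Acyp1/Zc2hc1c stood at 90.3 for the library labelled replicate 1 and 23.3 for the other, and Spaca9/Ak8 at 73.7 and 20.8. In the other direction Zfyve28/Cfap99 stood at 4.03 and 56.9, and Plgrkt/Cd274, whose second gene encodes the checkpoint ligand PD-L1, at 65.7 and 87.8. Of the 690 pairs open in both libraries, 41 (5.94%) ranked at least 10 points higher in the library labelled replicate 1. The reverse held for 9 (1.30%). The medians of open pairs and of open single promoters were also higher in the library labelled replicate 1. Percentiles differed by under 10 points in 92.8% of these pairs, against 72.0% of the 8305 single promoters open in both. These shares are not on equal terms, since open pairs crowd near the top of the scale. Their quartiles were 90.4 to 97.7 and 88.0 to 96.9, against 70.6 to 95.2 and 68.6 to 94.3 in open single promoters. Spearman's rho between the libraries was 0.81 in each set. The part of this crowding in the shares was not tested. The only pair with a gene of the pancreas list was Foxa3/Sympk, at 92.6 and 91.6. Foxa3 encodes a transcription factor of gut-derived organs and Sympk a scaffold of messenger RNA 3' end processing.

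The 27 pairs without a peak in either shorter list stood apart in sequence. Of these, 4 (14.8%, 5.92 to 32.5) were CpG-rich, against 83.9% of all pairs, and their median ratio of observed to expected CpG was 0.298 against 0.764. The longer lists held no peak in 22 of them. No footprint lay in 27 of them for the library labelled replicate 1 and in 24 for the other. Intervals with a false discovery rate (FDR) below 0.05 were present in 5. In 10 pairs a peak stood at another annotated transcript start of either gene in both libraries, so the outermost 5' end was not the open one. Rnf151/Rps2 was such a case: no peak lay within the region, and the nearest was 1705 bp away for the library labelled replicate 1 and 1785 bp for the other. Rps2 encodes a ribosomal protein of the small subunit. Ccnt1/4930415O20Rik (2963 and 2923 bp), Dgcr2/Tssk2 (5622 and 6662 bp) and Slc27a5/Trim28 (5659 and 5663 bp) were further ones. Ccnt1 encodes the cyclin of the elongation kinase P-TEFb and Trim28 a corepressor. Il11/Tmem190 and Patl2/Terb2 had no peak at any annotated start.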

How the data were processed

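DNase-seq of 2 libraries labelled thymus was used as deposited, on mm10 per the labels. The deposited peak lists give a signal per peak (scaling not given in the sources used here), and the shorter of the 2 lists per library was the main one. The deposited footprint lists carry a constant score of 0.01, and the deposited tables give the FDR for intervals below 0.05. For the aligner, callers and thresholds, the sources used here name none. Gene 5' ends came from GENCODE vM21 and sequence from RefSeq GRCm38.p6, with Python 3.11.15, numpy 2.4.6, pandas 2.3.3, scipy 1.17.1 and pysam 0.24.0. A region was open when a peak overlapped it by at least 1 bp. Pair finding and overlaps were tested on simulated data. Depth is unknown, so the Wilson intervals cover counting of regions only.

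Members, gene lists, motifs and textbook pairs were chosen with earlier results of these data known. Named by rule were the 8 highest pairs by mean percentile, up to 5 open in 1 library only per library, up to 8 without a peak in any list by distance, the 4 with most footprints, the 3 shortest and 3 longest, the textbook pairs, pairs with a T lineage or pancreas gene, and the 2 highest of each other list. The collagen list had 1 pair, Col4a4/Col4a3. Of the pairs named by rule, the text gives a selection, and some items are not reported here. No test was made, since 1 group of 2 libraries allows none over samples. Alternatives covered the peak list, flank, distance, overlapping 5' ends, coded gene names, the single-promoter set, CpG content, peak strength, overlap and each library alone. Chosen after seeing the data were any transcript start and 1 pair per overlapping region.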

Additional observations from a re-analysis of the deposited data

How the results depend on the processing

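Over 93 alternative values of 8 results, 64 stayed within the interval or SD of the reported value, 29 moved beyond it and 0 changed sign. The share of pairs open in both libraries was 98.5% for CpG-rich regions and 96.7% with any transcript start, and ran from 94.7% to 95.6% with either library alone. Its excess over single promoters, 48.2 percentage points as reported, was 44.9 with the longer lists, 50.2 with a flank of 250 bp, 13.6 for CpG-rich regions, 54.1 with the stronger 50% of peaks and 45.0 with any transcript start, and 42.6 to 45.3 with either library alone. The mean of the libraries' median percentiles, 94.2 as reported, was 96.0 with the longer lists. Its excess over single promoters, 6.70 as reported, was 5.71 with the longer lists, 6.59 with a flank of 250 bp, 6.83 with 5' ends at most 500 bp apart, 5.96 with overlapping 5' ends, 6.90 without coded names, 7.10 without noncoding partners and 4.05 for CpG-rich regions. The mean of the median footprint counts, 9.5 as reported, was 8.5 with a flank of 250 bp and 6.5 within peaks only. Its excess, 2 as reported, was 1.5 within peaks only. It was 2.5 with the longer lists, a flank of 250 bp, overlapping 5' ends, no coded names, no noncoding partners or 1 pair per overlapping region. The share with the strongest peak between the 5' ends, 60.6% as reported, was 51.3% with overlapping 5' ends. The share open in 1 library only, 2.32% as reported, was 1.36% with any transcript start. The SDs rest on 2 libraries, so small shifts count as moves. No paired analysis was possible because there is 1 group. Unknown depth limits what an absent peak shows.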
